A study of Mus musculus with 2 samples.

Results

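The nuclear genes for the protein part of the mitochondrial ribosome are described here across LSK cells of bone marrow and spleen. They were taken as the protein-coding genes whose mouse symbol starts with Mrpl (large subunit) or Mrps (small subunit) followed by a digit, which gave 78 of the 31053 genes in the count tables. The rule uses only symbol and gene type. The mitochondrial ribosome translates the few messenger RNAs encoded by mitochondrial DNA, which specify core subunits of the respiratory chain and of ATP synthase. Its RNA comes from mitochondrial DNA, while its proteins are made in the cytosol and imported. Erythroid precursors need mitochondria for heme synthesis, and resting blood stem cells are known for low mitochondrial activity.

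Both groups were LSK cells, sorted for low or absent lineage markers together with Sca1 and high c-Kit, a fraction of blood-forming tissue that holds stem cells and early progenitors. All cells came from C57BL/6 mice that carried an orthotopic tumour of Hepa1-6, a mouse hepatoma line, in the left liver lobe and were 6 to 8 weeks old at injection, so no tumour-free animal enters any comparison. The groups differ in tissue, bone marrow (marrow below) or spleen, with 1 library each, made by a droplet assay that counts unique molecular identifiers (UMIs) at the 3′ ends of transcripts. The labels give neither the number of mice per library nor which bead enrichment before the sort, lineage depletion or CD117, served which tissue.

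The marrow library held 10088 cells and 73740963 UMIs (median 5991 per cell), the spleen library 6546 cells and 85937174 UMIs (median 9978), and 16 cell barcodes occurred in both. Levels are given as CPM, the UMIs of a gene in a set of cells scaled to a common total of 1000000 UMIs, so more of these transcripts and fewer of others cannot be told apart. With 1 library per tissue there is no replicate and no test, and every interval is an exact 95% interval for counting error alone. Over all cells the sort markers were present in both libraries. Kit had 273 and 225 CPM in marrow and spleen, and Ly6a, which encodes Sca1, 70.5 and 80.6 CPM. An atlas label in the deposited cell table named 112 marrow cells (1.11%) and 3413 spleen cells (52.1%) as dendritic, T, B, NK, innate lymphoid, mast or basophil cells. The authors' 8 clusters, made from the expression of the same cells, keep their deposited names. Of these, 7 had at least 100 cells in each library. In the cluster named MEP, Kit and Ly6a summed to 251 CPM in marrow and 148 CPM in spleen. Only 1 of the 2 reached 10 CPM there in either library, while both did in every other cluster.

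Over all cells, transcripts of the mitochondrial ribosome took a larger share of the spleen library. The 78 genes summed to 4844 CPM in marrow (4829 to 4860.3) and 6831 CPM in spleen (6813 to 6848), a ratio of 1.41 (1.404 to 1.42). A member counts as higher or lower here when (CPM + 1) differs at least 1.5-fold, among genes that average 10 CPM or more. By that rule 28 of 77 members were higher in spleen and 0 lower, while 10.8% of all 8644 genes were higher and 18.3% lower. The median log2 ratio of the members was 0.51 and that of all genes -0.11. Above 0 lay 72 members, beside 41.8% of all genes. The member under the limit was Mrpl53, with 12 UMIs in marrow and 16 in spleen, which overlaps the protein-coding Gm42688 on its own strand.

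Mrps28 and Mrpl12 had the highest ratios. Mrps28, a small subunit protein (chromosome 3, 8802146 to 8923918, mm10), had 38.9 and 79.4 CPM in marrow and spleen, 2.04-fold higher in spleen (1.96 to 2.13). Mrpl12 (chromosome 11, 120484613 to 120489065), the counterpart of a bacterial stalk protein that contacts translation factors, had 99.2 and 199 CPM (2.004-fold, 1.95 to 2.06). The next 4 were Mrpl36 (55.9 and 110.5 CPM, 1.98-fold), Mrpl20 (101 and 189.6 CPM, 1.89-fold), Mrps18b (33.7 and 63.7 CPM, 1.89-fold) and Mrps15 (41.7 and 78.5 CPM, 1.88-fold). Of these 6, all but Mrps18b are classed here as having a counterpart in the bacterial ribosome. Of all 78 members, 29 of the large and 16 of the small subunit are so classed. The shares called higher in each class are given below.

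At the other end the levels in marrow and spleen were close. Mrpl33, a small protein of the large subunit (chromosome 5, 31596935 to 31664384), had the lowest ratio, at 183 and 165 CPM (0.8998, 0.879 to 0.921). Mrpl48 (63.6 and 61.4 CPM), Mrps31 (36.2 and 34.96 CPM), Mrpl24 (98.6 and 96.2 CPM) and Mrpl44 (32.98 and 32.7 CPM) had intervals of the ratio that include 1. Mrpl23, with 172 and 177 CPM, completed the lowest 6 at a ratio of 1.03.

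When summed, both subunits, and proteins with and without a bacterial counterpart, had similar ratios. The shares of members called higher were less alike, and are read beside 10.8% of all genes. The 29 large subunit members with a bacterial counterpart summed in marrow and spleen to 2123 and 2909 CPM (ratio 1.37, 9 of 29 measured members higher). The 22 without one, among them Mrps18a and Mrps30, which sit in the large subunit despite their symbols, summed to 1227 and 1787 CPM (ratio 1.46, 9 of 21 measured members higher). The 16 small subunit members with a counterpart summed to 946 and 1353 CPM (ratio 1.43, 4 of 16 measured members higher), and the 11 without one to 549 and 782 CPM (ratio 1.42, 6 of 11 measured members higher).

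The 3 paralogs named Mrps18, of which Mrps18c alone is classed with a bacterial counterpart, differed. Mrps18b (chromosome 17, 35910379 to 35916389) was 1.89-fold higher in spleen (1.801 to 1.98). Mrps18a (chromosome 17, 46110986 to 46128910) had 41.3 and 61.01 CPM in marrow and spleen (1.48-fold, 1.41 to 1.54), and Mrps18c (chromosome 5, 100798627 to 100804471) 82.3 and 89.02 CPM (1.082-fold, 1.05 to 1.12). None of the 3 intervals overlap.

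Of 5 members set apart for their roles, Mrpl58, Mrps36 and Mrpl47 were higher in spleen, and Mrps12 and Mrps30 did not reach 1.5-fold. Mrpl58, a hydrolase that frees peptides from stalled ribosomes, had 36.8 and 57.4 CPM in marrow and spleen (1.56-fold). Mrps36, also described as a subunit of the alpha-ketoglutarate dehydrogenase complex, had 43.5 and 78.1 CPM (1.796-fold, 1.72 to 1.87). The ratios of Mrps12 (63.7 and 86.4 CPM), Mrpl47 (17.9 and 27.7 CPM) and Mrps30 (43.8 and 52.8 CPM) were 1.36, 1.55 and 1.205. With the cells of the classes named by the atlas label left out, Mrpl58 had a log2 ratio of 0.51, short of 1.5-fold. Mrps12 then had 0.65, past 1.5-fold, and Mrps36, Mrpl47 and Mrps30 had 1.03, 0.997 and 0.46. Among the members with the most UMIs, Mrpl52 had 249.8 and 368 CPM, Mrpl30 122 and 202, Mrpl18 136 and 188 and Mrpl57 117 and 186; among those with the fewest, Mrps2 had 13.5 and 15.6 CPM and Mrps27 14.8 and 23.4. UMIs were not divided by transcript length, so levels are compared between cells and not between genes.

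The makeup of the libraries moved with this difference. The cluster named MEP, in which the 5 erythroid markers Car1, Klf1, Ermap, Gata1 and Epor summed to 2698 and 3697 CPM in marrow and spleen, gave 5.69% of marrow UMIs and 36.8% of spleen UMIs. Without MEP cells, an alternative chosen after seeing the data, the members summed to 4719 and 5124 CPM, a ratio of 1.09, and 2 members were higher and 0 lower, beside 8.35% and 13.9% of all genes. Giving the clusters equal weights in marrow and spleen left a ratio of 1.16 and 0 members higher and 0 lower, beside 4.72% and 5.68% of all genes. Without the other classes named by the atlas label, which removes 52.1% of spleen cells but 1.12% of spleen MEP, the ratio was 1.64 (1.64 to 1.65), with 52 members higher beside 14.1% of all genes.

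The level was then read in each cluster, and in both libraries it was highest in MEP. In marrow the 78 members summed to 4196 in HSC-1, 5384 in HSC-2, 4982 in HSC-3, 6921 in MEP, 4339 in LP, 4599 in DCP and 4195 in MP, all in CPM. In spleen the sums were 4759 in HSC-1, 5816 in HSC-2, 5836 in HSC-3, 9761 in MEP, 5175 in LP, 5175 in DCP and 4728 in MP. The marrow intervals of MP overlapped those of HSC-1 and LP, and in spleen the intervals overlapped between HSC-1 and MP, between HSC-2 and HSC-3, and between LP and DCP. Cluster MCP, with 36 marrow cells, stood at 4552 CPM (4269 to 4847) there and 4213 CPM (4112 to 4316) in spleen.

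**Figure D1:**
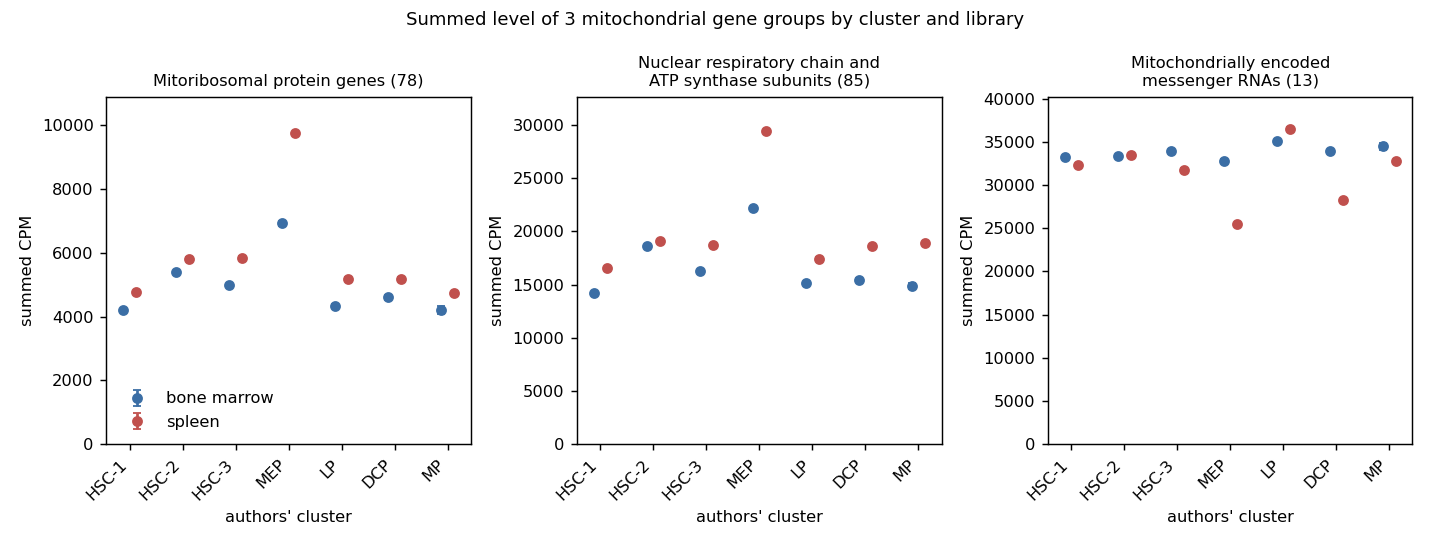
Summed CPM (y axes, from 0) of the mitoribosomal members, of nuclear respiratory chain genes and of mitochondrially encoded messenger RNAs in 7 clusters (x axis) of both libraries, with exact 95% Poisson intervals. The members reach 6921 CPM in marrow MEP and 9761 CPM in spleen MEP, above every other cluster of the same library, while the mitochondrially encoded RNAs stand at 25466 CPM in spleen MEP.

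MEP was the highest of the 7 clusters for 58 of 78 members in marrow and for 69 in spleen. MP was the lowest for 37 members in each library, and HSC-1 for 20 and 16. The shares of all genes with these extremes were not computed, so the counts stand without a background. Over the 14 groups of library and cluster, the widest range was that of Mrps27, a pentatricopeptide repeat protein of the small subunit, from 4.06 to 36.5 CPM (2.89 on the log2 scale), but its low end is 4 UMIs in marrow MP, with an interval of 1.11 to 10.4 CPM, so its place in this order is uncertain. Mrps28 (20.3 to 143 CPM), Mrpl12 (59.8 to 368 CPM), Mrps22 (11.2 to 64.3 CPM), Mrps18b (23.4 to 116 CPM) and Mrpl35 (28.4 to 139.8 CPM) followed. All 6 were highest in spleen MEP. Mrps27, Mrps28 and Mrpl35 were lowest in marrow MP, which holds 118 cells (20 UMIs of Mrps28 and 28 of Mrpl35), Mrps22 in spleen MP, and Mrpl12 and Mrps18b in marrow HSC-1.

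**Figure D2:**
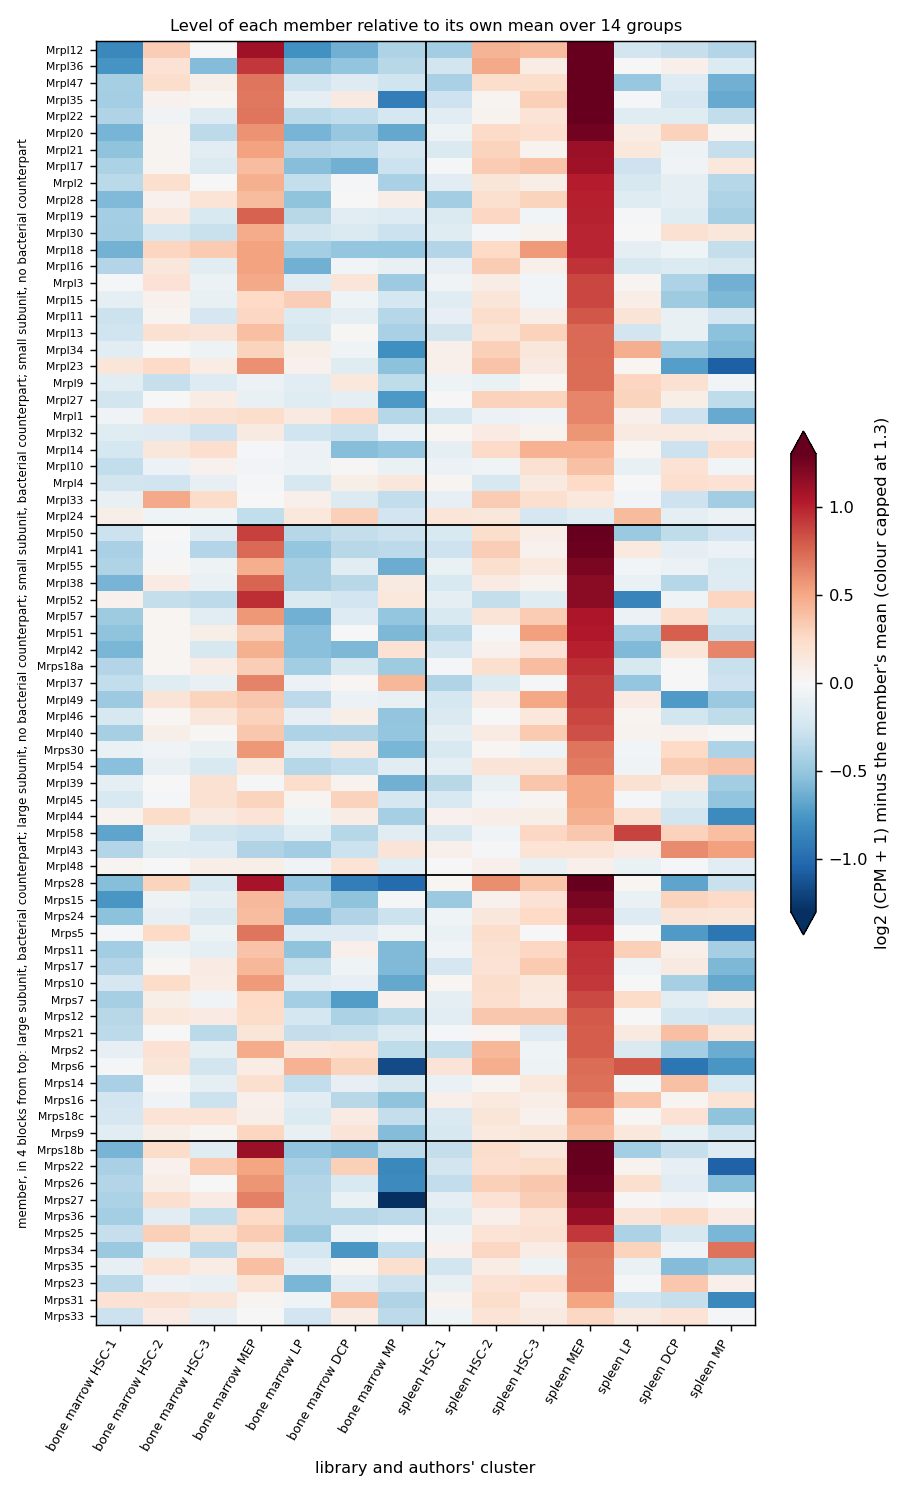
Level of 77 members (rows, in blocks by subunit and bacterial counterpart) in 14 groups of library and cluster (columns), as log2 (CPM + 1) minus the member's own mean, with colours capped at 1.3. The MEP columns hold the highest value of their library for 58 (marrow) and 69 (spleen) of the 78 members, with no share of all genes computed. Mrpl24, whose lowest level of 78.1 CPM is in marrow MEP, runs the other way.

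Against cluster HSC-1, cells of MEP had more of nearly every member in both libraries. The marrow ratio was 1.65 (1.63 to 1.67), with 47 of 77 members higher and 0 lower, beside 19.4% and 32.3% of all genes. The spleen ratio was 2.05 (2.03 to 2.07), with 64 members higher and 0 lower, beside 25% and 36.7%. The members' median log2 ratio was 0.69 in marrow and 0.99 in spleen, where that of all genes was -0.19 and -0.18. Other classes made up 29.2% of spleen HSC-1 cells, and without them the spleen ratio was 2.06. The mix of erythroid labels within MEP also differed between the libraries, and ratios by label are given below.

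Mrpl12 led in both libraries. It had 59.8 and 231 CPM in marrow HSC-1 and MEP (3.87-fold, 3.57 to 4.195) and 78.1 and 368 CPM in spleen (4.71-fold, 4.39 to 5.05). Mrps18b followed with 23.4 and 79.8 CPM in marrow (3.41-fold) and 28.99 and 116 CPM in spleen (3.9998-fold). Mrpl36 (38.8 and 126 CPM in marrow, 56.1 and 184 in spleen) and Mrps28 (28.1 and 88.4 CPM in marrow, 42.2 and 143 in spleen) came next in marrow. Mrpl47, a large subunit protein, was among the highest 4 in spleen alone, with 13.4 and 48.8 CPM (3.63-fold, 3.07 to 4.34) against 13.3 and 30.3 CPM in marrow (2.27-fold, 1.84 to 2.79).

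The Mrps18 paralogs kept their order. Mrps18a was 1.64-fold higher in marrow MEP than in marrow HSC-1 (1.41 to 1.89) and 1.98-fold in spleen (1.796 to 2.18). Mrps18c had 70.3 and 86.5 CPM in marrow (1.23-fold, 1.096 to 1.38) and 71.7 and 112 CPM in spleen (1.57-fold, 1.45 to 1.697).

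A few members did not follow. Mrpl24, whose bacterial counterpart starts the assembly of the large subunit (chromosome 3, 87919506 to 87923672), was lower in MEP, at 103 and 78.1 CPM in marrow HSC-1 and MEP (0.758, 0.674 to 0.8498) and 109 and 87.3 CPM in spleen (0.8003, 0.747 to 0.857). It was the only member of the 77 with a log2 ratio below 0 in both libraries. Mrpl43 (73.1 and 72.7 CPM in marrow, 100.4 and 108 in spleen) and Mrpl48 (63.5 and 65.5 CPM in marrow, 62.3 and 64.9 in spleen) were nearly level. Mrps31 had 36.8 and 33.1 CPM in marrow, with an interval of the ratio from 0.747 to 1.07, and Mrpl4 had 51.5 and 60.4 CPM in spleen (1.17-fold).

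**Figure D3:**
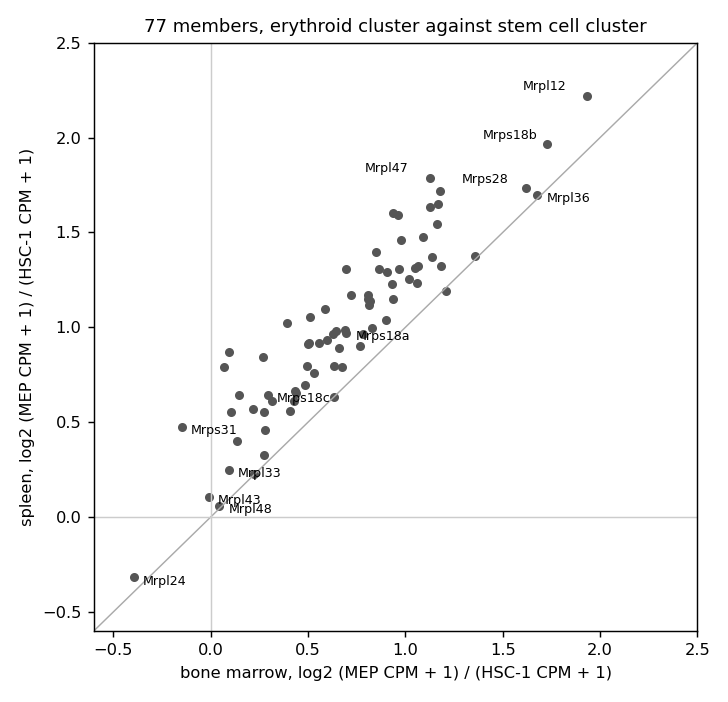
Each point is 1 of 77 members, placed by its log2 ratio of MEP over HSC-1 in marrow (x axis) and spleen (y axis), with the line of equal ratios. The ratio is larger in spleen for 76 members and above 0 on both axes for 74, from Mrpl24 (-0.40 and -0.32) to Mrpl12 (1.93 and 2.22). Of all genes, 41.3% lie above 0 in marrow and 43.7% in spleen, and no share above 0 on both axes is given. The makeup of MEP differs, with cells labelled Ery-3 at 19.3% of marrow MEP and 69.1% of spleen MEP.

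HSC-2 and HSC-3 stood between HSC-1 and MEP. HSC-2 over HSC-1 was 1.28 in marrow (1.27 to 1.29) and 1.22 in spleen (1.21 to 1.24), with 16 and 8 members higher and 0 lower in either, beside 10.2% and 9.26% of all genes higher and 13.6% and 11.1% lower. Mrpl12 had 59.8 and 134 CPM in marrow HSC-1 and HSC-2 and 78.1 and 146 in spleen. HSC-3 over HSC-1 was 1.19 in marrow (1.18 to 1.199) and 1.23 in spleen (1.21 to 1.24), with 7 and 9 members higher and 0 lower, beside 9.43% and 10.4% of all genes higher and 10.2% and 14% lower. Mrpl18 had 90.8 and 178 CPM in marrow HSC-1 and HSC-3 and 107 and 206 in spleen, while Mrpl52 had less in marrow HSC-2 than in HSC-1 (269.97 and 209 CPM in HSC-1 and HSC-2).

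Across the 77 members the ratios of marrow and spleen followed each other (Pearson's r 0.916, Spearman's rho 0.927), a description over genes that share the cells, depth and clustering of each library. MEP cells were deeper than HSC-1 cells, with a median of 11230 against 4794 UMIs in marrow and 36084 against 6934 in spleen. With every cell thinned to 3700 UMIs the ratio was 1.5002 in marrow and 1.96 in spleen. The median cell then held 15 member UMIs in marrow HSC-1, 23 in marrow MEP, 17 in spleen HSC-1 and 34 in spleen MEP, where the unthinned medians were 20, 68, 31 and 350. Thinning left out 824 marrow and 216 spleen HSC-1 cells, and 35 and 0 MEP cells.

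Promoter bases are shown for the 2 highest and the 2 lowest members by mean ratio of MEP over HSC-1, since these stand farthest apart in that ratio. They are from RefSeq (GRCm38.p6), 5′ to 3′ on the gene's strand, up to the first annotated start. Capitals mark matches, on either strand, to 3 motifs: GCGCA, any base and GCGC for the nuclear respiratory factor NRF1, CCGGAAG for the ETS family, and AA, any base and ATGGCGG for YY1. The bases of Mrpl12 are chr11:120484387-120484612 (plus strand), those of Mrps18b chr17:35916441-35916690 (minus), those of Mrpl43 chr19:45006443-45006692 (minus) and those of Mrpl24 chr3:87919294-87919505 (plus).
Mrpl12: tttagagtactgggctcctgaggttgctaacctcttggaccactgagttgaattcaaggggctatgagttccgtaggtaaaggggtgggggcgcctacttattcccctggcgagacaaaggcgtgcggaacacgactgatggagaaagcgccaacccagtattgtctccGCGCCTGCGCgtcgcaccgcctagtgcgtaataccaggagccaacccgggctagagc
Mrps18b: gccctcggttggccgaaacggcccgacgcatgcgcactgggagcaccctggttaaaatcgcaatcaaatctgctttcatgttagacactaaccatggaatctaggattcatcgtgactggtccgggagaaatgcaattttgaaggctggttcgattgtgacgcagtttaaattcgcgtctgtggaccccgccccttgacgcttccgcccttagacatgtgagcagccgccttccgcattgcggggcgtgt
Mrpl43: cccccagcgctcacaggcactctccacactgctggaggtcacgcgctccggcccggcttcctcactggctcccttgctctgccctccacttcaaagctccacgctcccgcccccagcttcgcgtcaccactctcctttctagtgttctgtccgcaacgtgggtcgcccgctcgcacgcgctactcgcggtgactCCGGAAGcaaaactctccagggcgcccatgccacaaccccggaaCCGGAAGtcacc
Mrpl24: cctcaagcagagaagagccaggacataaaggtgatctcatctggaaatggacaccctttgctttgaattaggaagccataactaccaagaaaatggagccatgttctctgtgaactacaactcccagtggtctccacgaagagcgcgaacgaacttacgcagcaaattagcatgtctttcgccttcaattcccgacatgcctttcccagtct

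Mrpl12 held 1 NRF1 match, on the reverse strand, at -81 from the RefSeq start. Mrpl43, with level ratios, held ETS matches at -56 and -12. Mrpl24 held none of the 3 motifs, and Mrps18b none in the bases shown, with an ETS match at 44 after its start. Windows of 300 bases around a start were found for 69 of the 78 members and numbered 75. NRF1 letters were in 17.3% of them and in 4.603% of all 32851 windows, ETS letters in 34.7% and 8.86%, and YY1 letters in 9.33% and 1.36%. All windows were not matched to those of the members in base composition or expression. The shares are therefore not read as particular to the members. The 34 members with the higher and the 34 with the lower ratios of MEP over HSC-1 held NRF1 letters in 5 and 8 cases, ETS letters in 11 and 14 and YY1 letters in 4 and 3. A match describes letters and is no evidence of binding.

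A second deposited label, from a reference of marrow progenitors, divides erythroid cells into Ery-1, Ery-2 and Ery-3, and the members' level was ordered along it in both libraries. In marrow it was 5079.9 CPM in Ery-1 (125 cells), 7051 in Ery-2 (131 cells) and 8962 in Ery-3 (69 cells). In spleen it was 5865 (137 cells), 7949 (134 cells) and 10302 CPM (628 cells). Ery-3 over Ery-1 was 1.76 in marrow (1.701 to 1.83) and 1.76 in spleen (1.72 to 1.79). Higher in Ery-3 were 56 of 77 members in marrow, beside 22.4% of all genes, and 55 in spleen, beside 22.2%, and 0 were lower in marrow and 0 in spleen, beside 26% and 23.6%. The order Ery-1, Ery-2, Ery-3 held for 70 members in marrow and 70 in spleen. The share of all genes in this order was not computed, so these counts stand without a background. Against cells labelled HSC-1 by the same reference, the ratios in marrow and spleen were close for each label. They were 1.149 and 1.145 in Ery-1, 1.594 and 1.552 in Ery-2, and 2.03 and 2.01 in Ery-3. The marrow and spleen intervals overlapped for each label.

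Mrpl12 followed this order with 136, 248.6 and 314 CPM in marrow and 163, 286 and 395 CPM in spleen. Mrps18b had 58.5, 80.97 and 110.2 CPM in marrow and 54.2, 97.4 and 124 CPM in spleen. Mrpl24 did not, with 88.9, 71.6 and 71.8 CPM in marrow and 101, 71.1 and 87.8 in spleen. The highest ratio of Ery-3 over Ery-1 was that of Mrps15 in marrow (35.1 and 112 CPM) and of Mrpl35, a large subunit protein, in spleen (54.2 and 151 CPM). Depth moved with the labels, from a median of 5519 to 16710 UMIs per cell in marrow and from 10502 to 41601.5 in spleen. The 4 cycling markers Mki67, Top2a, Cenpf and Ube2c moved too, from 298 to 958 CPM and from 404 to 1472 CPM; the part of either in this order was not tested.

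**Figure D4:**
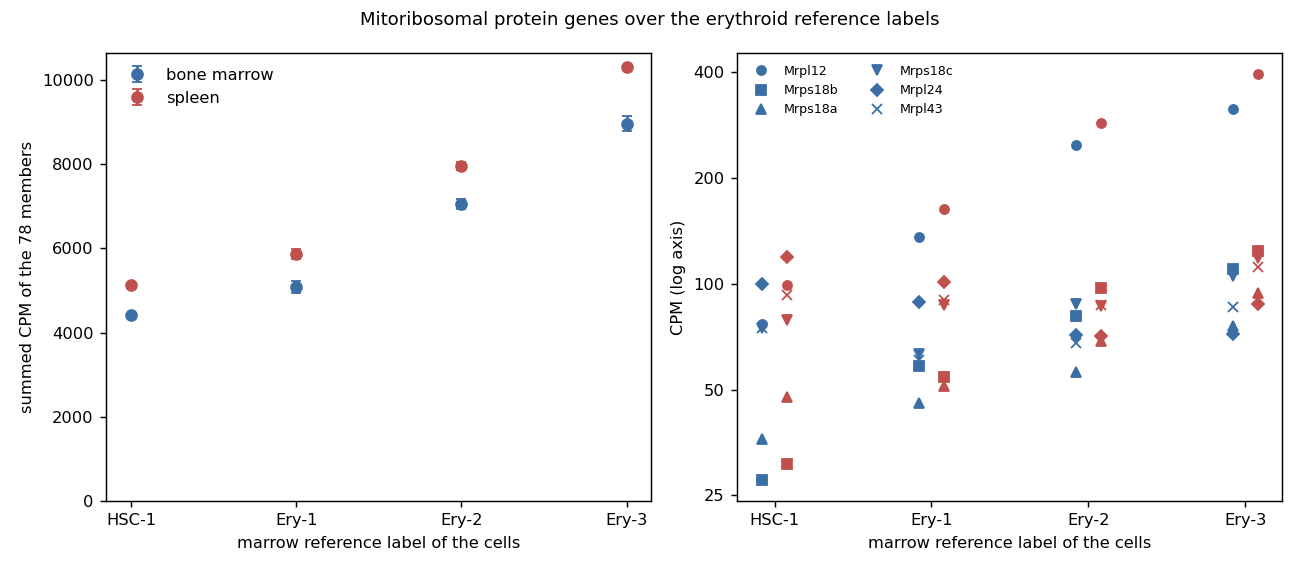
Left, summed CPM of the 78 members (y axis, from 0) in cells of 4 marrow reference labels (x axis) in both libraries, with exact 95% Poisson intervals. Right, CPM of 6 members on a log axis over the same labels, where Mrpl12 reaches 314 (marrow) and 395 (spleen) in Ery-3 and Mrpl24 stands at 71.8 and 87.8.

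Compared between tissues within a cluster, the summed members were higher in spleen for all 7 clusters, and by most in MEP. The MEP ratio was 1.41 (1.39 to 1.43), with 25 of 77 members higher and 0 lower, beside 7.46% and 13.5% of all genes. Above 0 lay 76 members, beside 48.4% of all genes. Mrps36 (63.1 and 117 CPM in marrow and spleen MEP, 1.85-fold, 1.63 to 2.103) and Mrps22 (35.3 and 64.3 CPM, 1.82-fold) were highest. Mrps9 (91.2 and 99.5 CPM) and Mrpl48 (65.5 and 64.9 CPM) were lowest, with intervals that include a ratio of 1.

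The erythroid labels made up different shares of MEP in the tissues, with Ery-3 at 19.3% of marrow MEP and 69.1% of spleen MEP. Among MEP cells of 1 label, a comparison chosen after seeing the data, the spleen to marrow ratio was 1.17 in Ery-1 (1.12 to 1.22), 1.13 in Ery-2 (1.103 to 1.15) and 1.15 in Ery-3 (1.13 to 1.17). The members higher in spleen were then 9, 1 and 0 of 77, beside 8.37%, 3.82% and 3.95% of all genes, and the members lower 0, 0 and 0, beside 12.8%, 5.46% and 7.05%. Other marker lists also differed between marrow and spleen MEP: the 5 stem cell markers summed to 612 and 152 CPM, the 4 cycling markers to 768 and 1399.6, the 5 dendritic markers to 176 and 715 and the 5 granulocyte-monocyte markers to 139 and 15.4. The 5 T or innate lymphoid markers summed to 0.476 and 23.4 CPM and the 5 mast or basophil markers to 11.7 and 46.95. In marrow MEP only 2 of the 5 T or innate lymphoid and 1 of the 5 mast or basophil markers had any UMI. Trbc1 and Cma1 were among those at 0 UMIs there. The part of these lists in the ratio was not tested. Without the other classes the MEP ratio was 1.41.

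In the 3 clusters named HSC the tissues differed less. In HSC-1 the ratio was 1.13 (1.12 to 1.15) and 0 of 77 members were higher or lower, beside 4.96% and 5.48% of all genes. Mrps28 (28.1 and 42.2 CPM in marrow and spleen) and Mrps34 (50.8 and 74.5 CPM) were highest, Mrpl39 (19.1 and 16.02 CPM) and Mrps2 (12.1 and 10.3 CPM) lowest. The 5 dendritic markers summed to 382 and 11532 CPM in marrow and spleen HSC-1, and without the other classes (0.0396% and 29.2% of cells) the ratio was 1.13 with 1 member higher and 0 lower, beside 1.75% and 2.28% of all genes. The HSC-2 ratio was 1.0803 (1.07 to 1.09), again with 0 members past 1.5-fold, beside 1.67% and 2.77%. It ran from Mrps34 (66.9 and 86.2 CPM) and Mrpl41 (42.98 and 54.9 CPM) down to Mrpl33 (232 and 207 CPM) and Mrpl1 (28.7 and 23.98 CPM). The HSC-3 ratio was 1.17 (1.16 to 1.19), and Mrpl36 (44.7 and 71.2 CPM) was the 1 member called higher, with 0 lower, beside 5.77% and 8.77% of all genes. Mrps28 (36.1 and 53.8 CPM) followed, and Mrpl48 (65.9 and 57.7 CPM) and Mrpl1 (29.1 and 24.5 CPM) were lowest. Other classes were 42.1% of spleen HSC-3 cells, and without them the ratio was 1.252 with 6 members higher and 0 lower, beside 4.35% and 6.95% of all genes.

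**Figure D5:**
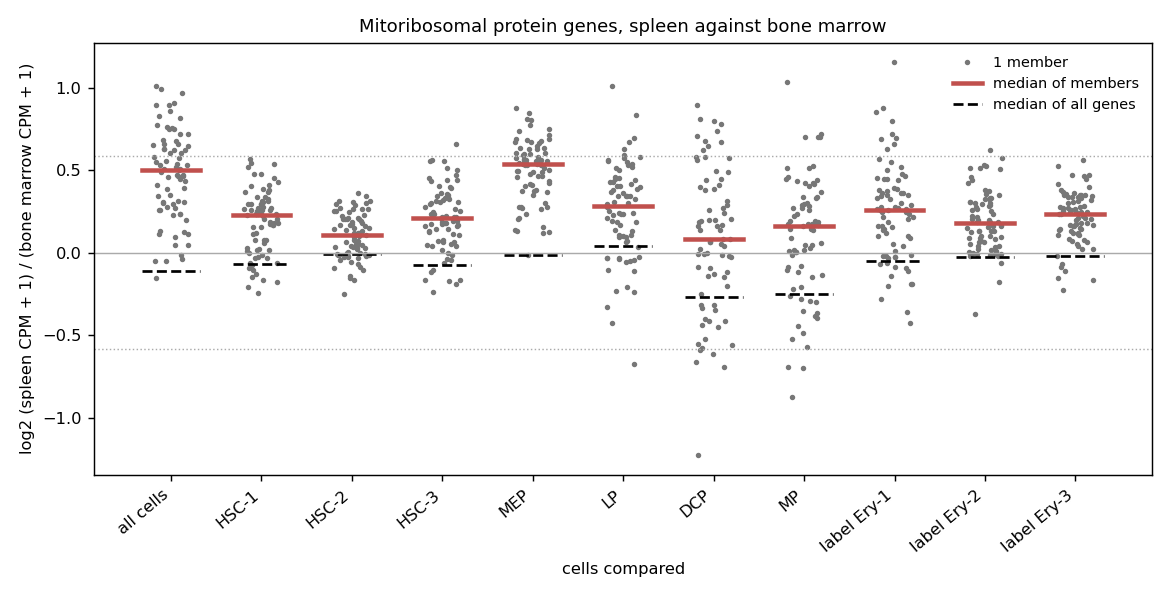
Log2 ratio of (CPM + 1) in spleen over marrow (y axis) for each measured member (points) in all cells, in 7 clusters and in 3 erythroid labels (x axis), with the members' median in red, that of all genes dashed, and dotted lines at 1.5-fold. The members' median is 0.51 over all cells and 0.54 in MEP, and lies between 0.09 and 0.28 in the other clusters and labels.

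In LP, DCP and MP most spleen cells were of other classes (82.5%, 83.8% and 92.7%), as were 61.02% of marrow MP cells but 1.17% of marrow LP and 0.794% of marrow DCP. The 5 dendritic markers summed in marrow and spleen to 469 and 2966 CPM in LP, 374 and 39516 in DCP and 24424 and 56359 in MP, and their part in the ratios was not tested. The LP ratio was 1.19 (1.17 to 1.21), with 6 members higher and 1 lower, beside 8.9% and 10.7% of all genes. There Mrpl58 (42.6 and 87.03 CPM in marrow and spleen, 2.04-fold, 1.74 to 2.41) and Mrps11 (26.3 and 47.6 CPM) were highest, Mrpl37 (18.3 and 13.4 CPM) and Mrpl52 (228 and 143 CPM, ratio 0.626) lowest. Without the other classes, over 761 marrow and 121 spleen cells, the LP ratio was 1.22 (1.19 to 1.26), with 16 members higher and 2 lower, beside 7.03% and 10.7% of all genes. The DCP ratio was 1.13, with 10 members higher and 5 lower, beside 13.7% and 32.5%, from Mrpl43 (78.5 and 147 CPM) and Mrps15 (35.3 and 62.8 CPM) to Mrps31 (42.6 and 25.99 CPM) and Mrps6 (26.6 and 10.8 CPM). The MP ratio was 1.13, with 5 of 75 members higher and 3 lower, beside 8.03% and 29.7%, from Mrps34 (56.8 and 117 CPM) and Mrpl14 (55.8 and 92.4 CPM) to Mrpl37 (26.4 and 15.8 CPM) and Mrps5 (55.8 and 29.99 CPM).

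Members differed in how closely they followed the sum of the other members over the 14 groups, which share 2 libraries. The median Pearson's r was 0.818 over 77 members, 27 had at least 0.9 and 8 under 0.5. No share of all genes is given for these limits, so the counts stand without a background. The MEP groups had the highest sums, and r of the members without them is not given. Mrpl24 had an r of -0.38 and ran from 78.1 to 130.4 CPM, with its highest level in spleen LP. Mrpl43 was highest in spleen DCP (147 CPM), Mrpl58 and Mrps6 in spleen LP (87.03 and 38.4 CPM) and Mrpl33 in marrow HSC-2 (232 CPM). Mrpl48 stayed within 55.8 to 70.4 CPM. Mrps6 overlaps Slc5a3 and Gm49711 on its own strand, Mrps24 Urgcp, Mrps34 Nme3 and Mrpl2 the noncoding Gm26904, so reads of these pairs may be assigned to either gene or to none, and values of these members are uncertain.

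Other parts of mitochondrial translation had unequal ratios. Of all genes, 19.4% were higher and 32.3% lower in MEP than in HSC-1 in marrow, and 25% and 36.7% in spleen, beside which the counts of each list are read. The 5 mitoribosomal proteins with other symbols summed to 328 and 512 CPM in marrow HSC-1 and MEP (1.56) and 378 and 728 CPM in spleen (1.93), with 3 and 4 of 5 higher. Over all cells of marrow and spleen, Dap3, a GTP-binding protein of the small subunit (61.2 and 93.6 CPM), and Gadd45gip1 (89.4 and 130.4 CPM) had the highest ratios of that list, Aurkaip1 (116 and 152 CPM) and Ptcd3 (29.8 and 33.5 CPM) the lowest. The 14 translation factors had ratios of MEP over HSC-1 of 1.404 and 1.79, with 4 of 13 and 5 of 13 measured genes higher. Tsfm, an elongation factor, had 19.5 and 53.1 CPM in marrow HSC-1 and MEP and 24.9 and 87.8 in spleen, and Lrpprc, which stabilises mitochondrial messenger RNAs, 22.9 and 78.4 in marrow and 23.2 and 81.3 in spleen. Guf1 (49.6 and 35.3 CPM in marrow, 34.4 and 33.8 in spleen) and the release factor Mtrf1l (20.2 and 16.9 CPM in marrow, 17.9 and 14.3 in spleen) did not share this, and in marrow the median log2 ratio of the list was -0.04 although its sum was higher.

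The 22 assembly and rRNA modification factors had ratios of 1.16 in marrow and 1.42 in spleen. In marrow 4 of 18 were higher and 2 lower, in spleen 5 of 16 and 0, beside those shares of all genes, and the marrow median log2 ratio of -0.05 goes against the sum. Mpv17l2 (16.4 and 44.3 CPM in marrow HSC-1 and MEP, 24.4 and 80.8 in spleen) and the GTPase Noa1 (14.7 and 47.2 CPM in marrow, 23.3 and 64.7 in spleen) were higher in MEP; the methyltransferase Nsun4 (15.9 and 9.53 CPM in marrow, 12.5 and 7.34 in spleen) was lower, and Gtpbp10 had 21.3 and 21.9 CPM in marrow and 19.2 and 17.1 in spleen. The 12 regulators of mitochondrial transcription and biogenesis had ratios of 1.22 and 1.22. Pprc1, a coactivator related to PGC-1, had 10.5 and 45.03 CPM in marrow and 11.6 and 41.96 in spleen, and Esrra 11.4 and 17.6 in marrow and 15.2 and 16.7 in spleen. Gabpb1, a subunit of the ETS-family factor GABP, was lower in MEP (65.3 and 18.6 CPM in marrow, 47.3 and 17.01 in spleen), and Nrf1 had 40.8 and 35.7 CPM in marrow and 31.4 and 34.97 in spleen.

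The nuclear and the mitochondrially encoded genes of the respiratory chain were read as separate lists. The 85 nuclear genes of the chain and of ATP synthase summed to 14203 and 22172 CPM in marrow HSC-1 and MEP (ratio 1.56, 41 of 78 measured genes higher) and 16578 and 29429 CPM in spleen (1.78, 56 higher and 1 lower). Atp5g1, a ring subunit of ATP synthase, had 171 and 609 CPM in marrow and 215 and 1008 in spleen, and Cox6a1 89.6 and 304 in marrow and 153 and 435 in spleen. Cox7a2l (479.5 and 329.96 CPM in marrow, 545 and 295 in spleen) and Uqcrh (647 and 560.1 CPM in marrow, 623 and 594 in spleen) had less in MEP.

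The 13 mitochondrially encoded messenger RNAs, the templates of the mitochondrial ribosome, summed to 33268 and 32817 CPM in marrow HSC-1 and MEP (0.986) and 32360.1 and 25466 CPM in spleen (0.787). Their median log2 ratios, 0.37 and 0.26, have the opposite sign to the sums. In spleen mt-Nd4l (156 and 333 CPM) and mt-Nd1 (1349.8 and 1952 CPM) were higher in MEP and mt-Nd6 (50.5 and 30.1 CPM) lower, as was mt-Co1 (7721 and 4524 CPM), named after its values were seen. Over all cells mt-Atp8 had 189 and 143 CPM in marrow and spleen. From Ery-1 to Ery-3 the ratio of the sums was 0.9401 in marrow and 0.714 in spleen. The 79 genes of the cytosolic ribosome had ratios of MEP over HSC-1 of 1.14 and 1.102, with 6 and 5 genes higher, beside 19.4% and 25% of all genes, and over all cells their ratio of spleen over marrow was 0.993, with Rplp0 (3262 and 4801 CPM) and Rpl13a (246 and 337 CPM) highest and Rps28 (3239 and 2388 CPM) and Rpl39 (4481 and 3164 CPM) lowest.

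Outside the erythroid cells, marrow cells with neutrophil labels also had high levels. Against 4423 CPM in marrow cells labelled HSC-1 by the marrow reference, the members summed to 5696 in Neu-1 (263 cells, 1.29-fold), 7000.2 in Neu-3 (123 cells, 1.58-fold) and 7294 in Neu-4 (75 cells, 1.65-fold). Higher were 12, 47 and 49 of 77 members, beside 9.03%, 16.2% and 15.5% of all genes, and 0, 1 and 1 were lower, beside 17.4%, 31.8% and 37.4%.

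The 5 genes outside the list whose level followed the summed members best over the 14 groups, among 3213 genes averaging 50 CPM or more, were Ndufb6 (r 0.985), Phf5a (r 0.985), Sssca1 (r 0.985), Phb2 (r 0.984) and Tomm20 (r 0.983). Ndufb6 encodes a subunit of respiratory complex I, Phf5a a splicing factor, Phb2 a mitochondrial prohibitin and Tomm20 a receptor of mitochondrial protein import. Over the 12 groups without MEP, r lay between 0.927 and 0.957. Their ranks there, in the order named, were 10, 9, 6, 26 and 19, so none stayed among the first 5.

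Within most clusters the level moved with the depth of the cell. Divided into 4 equal parts by UMIs, from shallow to deep, spleen MEP cells stood at 7127, 9278, 10075 and 10572 CPM and marrow MEP cells at 5517, 5438, 6674 and 7902. Marrow HSC-1 ran from 4010.2 to 4338 CPM and spleen HSC-1 from 4352 to 5024. In spleen DCP the order was the opposite (5338 to 5095 CPM).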

How the data were processed

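Each of the 2 libraries is a deposited table of UMI counts per gene and cell, in whole numbers without scaling. Reads, about 27000 for each cell, were aligned to mm10 and counted by the authors in Cell Ranger 3.1.0, per the design text. Seurat 3.1.5 and mm9 stand in the submitters' processing notes, and the builds conflict. The kit version is 3 in the design text but 3.1 in the labels' extract protocol. How cells were filtered and doublets handled is not given in the sources used here, and no doublet caller was run. Library, cluster and both reference labels of each cell are the authors' own, from the deposited cell table. The integrated matrix was not used, since such values are not expression.

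Symbols and positions came from GENCODE M21 (mm10), which paired 31011 of 31053 gene IDs. UMIs were added up within each library, cluster or label and scaled to CPM. Sums have exact Poisson intervals and ratios exact conditional binomial intervals at 95%. Log2 ratios use a pseudocount of 1 CPM. Calls need a mean of 10 CPM and 1.5-fold. Python 3.11.15, numpy 2.4.6, scipy 1.17.1, pandas 2.3.3 and matplotlib 3.10.9 were used, and the calculations were checked on simulated data.

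The members and all gene lists were chosen with earlier results of these data known. Members are named by extremes of ratio over all cells (6 at each end), within clusters (2), of MEP over HSC-1 (4), by most and fewest UMIs, by range (6), and by 9 names fixed for their roles. Other lists are named by their 2 highest and 2 lowest genes over all cells. Alternatives changed the cells summed, the scaling, the depth, the expression limit, the fold limit and the pseudocount.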

Additional observations from a re-analysis of the deposited data

How the results depend on the processing

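Of the alternative values, 43 stayed close to the reported one, 36 moved beyond its counting interval or 1.5 times its count, and 0 reversed. Those that stayed close include the count of lower members, which was 0 under every setting. They also include the count of higher members with ratios centred on the median of all genes, which was 40. Over all cells the ratio of 1.41 and the count of 28 higher members became 1.64 and 52 without the other classes, 1.22 and 11 with cells thinned to equal depth, 1.202 and 6 with cells weighted alike, 1.16 and 0 with clusters weighted alike, and 1.09 and 2 without MEP (chosen after seeing the data). The ratio was 1.42 without the 100 most abundant genes. The count was 18 at a limit of 50 CPM, 52 at a fold limit between 1 and 1.5 and 1 at 2-fold. For thinned cells, cells weighted alike, centred ratios and these limits, the share of all genes was not computed, so those counts stand without a background. MEP over HSC-1 was 1.5002 thinned, 1.54 with cells alike and 1.73 without the abundant genes in marrow, and 1.96 thinned and 1.96 with cells alike in spleen. Spleen over marrow within clusters moved, when thinned, to 1.47 in MEP, 1.14 in HSC-3, 1.15 in DCP and 1.17 in MP; with cells alike to 1.43 in MEP, 1.096 in HSC-2, 1.13 in HSC-3 and 1.16 in MP. Without the abundant genes it was 1.34 in MEP, 1.13 in LP, 1.16 in DCP and 1.21 in MP, and without the other classes 1.252 in HSC-3 and 1.22 in LP. Within MEP it was 1.17, 1.13 and 1.15 in Ery-1, Ery-2 and Ery-3. The cause of these moves was not tested. MP and DCP without the other classes have too few cells for a value. No paired analysis was possible because each tissue has 1 library, and no replicate can be left out. Intervals cover counting error only, so differences between animals or preparations cannot be told apart from differences between tissues.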
